A study of Mus musculus with 4 samples.

Results

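The 10 genes described here encode heat shock chaperones of the cytosol and the mitochondrion: Hspa1a, Hspa1b, Hspa8, Hsph1, Hsp90aa1, Hsp90ab1, Dnajb1, Hspb1, Hspd1 and Hspe1. They were taken by gene symbol from a table of 55421 Ensembl gene identifiers, and each symbol matched a single row. Mouse embryonic stem cells of the 129/Ola background, with blastocyst as their source tissue, gave 4 RNA libraries. In 2 libraries the microRNA cluster miR-290-295 had been knocked out (KO), in cells named as the E14 line and described as biological duplicates, and the other 2 were wild type (WT). All cells grew on gelatin in medium with serum and the cytokine LIF, and the labels list no heat or other treatment. The labels do not say if the KO duplicates are 1 clone or several, and each p-value here rests on the spread within these pairs of libraries, which may be technical.

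Heat shock proteins bind unfolded or newly made proteins and help them to fold. HSP70 proteins work in cycles of ATP hydrolysis that J-proteins start and nucleotide exchange factors end, HSP90 proteins act later on clients such as kinases and receptors, small heat shock proteins hold unfolded clients without ATP, and the mitochondrial HSP60 and HSP10 proteins form a closed folding chamber. The transcription factor HSF1 binds inverted repeats of GAA in the promoters of many of these genes when unfolded proteins accumulate, and mouse embryonic stem cells also make several of the constitutive chaperones in large amounts without stress.

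Promoters from RefSeq (GRCm38.p6, 250 bases before to 50 after the start) were found for 7 of the 10 genes, all but Hspa8, Hsp90aa1 and Hsp90ab1. They are shown because the heat shock element is the sequence feature that the group is known for. The capitals mark each match to GAANNTTC or TTCNNGAA, which are 2 inverted units with 2 bases between them and read the same on both strands. A 3-unit match adds another GAA or TTC, again after 2 bases, and so contains the shorter ones. Hsph1 has 2 overlapping windows in the table, of which 1 is shown.
Hspe1, chr1:55087898-55088197, plus strand: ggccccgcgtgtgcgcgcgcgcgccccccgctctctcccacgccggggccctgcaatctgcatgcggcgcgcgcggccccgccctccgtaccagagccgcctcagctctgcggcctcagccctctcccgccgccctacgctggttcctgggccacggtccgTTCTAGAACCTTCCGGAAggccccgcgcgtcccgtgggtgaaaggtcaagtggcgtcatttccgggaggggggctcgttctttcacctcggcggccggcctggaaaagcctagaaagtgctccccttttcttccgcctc
Hsph1, chr5:149636287-149636586, minus strand: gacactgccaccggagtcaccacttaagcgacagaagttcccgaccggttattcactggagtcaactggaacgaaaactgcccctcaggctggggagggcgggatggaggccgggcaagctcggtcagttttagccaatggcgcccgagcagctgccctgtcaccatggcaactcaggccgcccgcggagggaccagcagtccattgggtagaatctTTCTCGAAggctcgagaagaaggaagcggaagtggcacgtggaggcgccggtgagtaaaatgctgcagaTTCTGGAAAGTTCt
Hspb1, chr5:135887669-135887968, plus strand: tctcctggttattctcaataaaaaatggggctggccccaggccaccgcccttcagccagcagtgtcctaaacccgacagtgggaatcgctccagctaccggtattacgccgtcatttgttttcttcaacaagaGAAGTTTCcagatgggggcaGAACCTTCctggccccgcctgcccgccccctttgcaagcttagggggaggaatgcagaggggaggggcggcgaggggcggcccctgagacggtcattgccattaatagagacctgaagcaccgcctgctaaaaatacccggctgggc
Hspa1a, chr17:34972107-34972406, minus strand: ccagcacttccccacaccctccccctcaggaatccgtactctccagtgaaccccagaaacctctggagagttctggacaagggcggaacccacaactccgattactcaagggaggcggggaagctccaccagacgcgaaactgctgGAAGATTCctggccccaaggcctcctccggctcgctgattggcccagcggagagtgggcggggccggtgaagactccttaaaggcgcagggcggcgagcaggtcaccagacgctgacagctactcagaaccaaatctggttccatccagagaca
A 3-unit match was present in the windows of Hspe1, Hspd1 and Hsph1, against 0.662% of 27025 genes with a promoter in the same table. In the Hspe1 window the match begins 89 bases before the start and holds 4 alternating units, each 2 bases from the next. The same letters lie in 1 of the 2 Hspd1 windows, which shares 285 bases with that of Hspe1 on the other strand, so this is 1 element in the windows of 2 genes that are transcribed away from each other. Windows of Hspb1, Hspa1a and Hspa1b held only 2-unit matches, and neither of the 2 Dnajb1 windows held any. A 2-unit match was in the windows of 17% of all genes. The Hspa1b window is 98.67% identical to that of Hspa1a, and the 4 differences, counted from the first base of the window with the Hspa1a base first, are C44T, T47C, T249G and C276T. None of the 4 falls in the match.

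The microRNAs lost in KO cells include several with the seed AAGUGCU, shown here with bases 2 to 8 in capitals because a direct target would carry its complement.
mmu-miR-291a-3p, chr7:3218968-3218989, plus strand: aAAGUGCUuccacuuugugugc
mmu-miR-294-3p, chr7:3220691-3220712, plus strand: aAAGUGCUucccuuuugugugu
mmu-miR-295-3p, chr7:3220815-3220837, plus strand: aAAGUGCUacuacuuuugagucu
None of the 10 genes had AGCACTT or GCACTTA, the 7-base matches to this seed, in its longest annotated 3' untranslated region. These were found in 17.45% and 8.03% of 12484 tested genes. The 6-base core GCACTT, in 33.08% of tested genes, was found once in Dnajb1 and once in Hspa1b. With the base before the core, each is a 7-base match to another microRNA of the cluster. The Dnajb1 site, GGCACTT, matches mmu-miR-290a-3p (bases 2 to 8 AAGUGCC). The Hspa1b site, TGCACTT, matches mmu-miR-291b-3p (AAGUGCA). The shares of tested genes with these matches were not counted. Both sites are shown with the core in capitals.
Hspa1b, base 47 of 643: acagactctttGCACTTgatagctgctt
Dnajb1, base 651 of 1834: ggccacacctgGCACTTctcagaggcac

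Depth was 12726123 and 11764868 counts in KO libraries 1 and 2, and 12163759 and 9925557 in WT libraries 1 and 2, and levels below are counts per 1000000 of the library total (CPM). Each read of this 3' tag method (QuantSeq) lies near the poly(A) tail, so counts were not divided by transcript length. As a check of the genotype, the 7 plus-strand microRNA genes of the cluster held 0 counts in each KO library and 88 and 39 in WT. Of 8 embryonic stem cell markers all were detected, with summed levels of 3126 to 3529 CPM over the 4 libraries, and 1 of them, Klf4, was called lower (-1.59, edgeR adjusted p = 0.00235). Markers of the primitive endoderm summed to 24.4 and 26.3 CPM in KO and to 168 and 183 CPM in WT, and 6 of the 9 were called lower by edgeR. Markers of fibroblasts or feeder cells summed to 15.5 and 26.9 CPM in KO and to 41.6 and 64 CPM in WT, with Col3a1 at 0 in every library. Most of each sum was Thy1, at 9.82 and 20.3 CPM in KO and at 26.8 and 50.2 in WT. Of these 5 markers 3 were tested, and all 3 were called lower by edgeR, against 4.96% of all tested genes. The part of these cells in the values below was not tested. In such bulk libraries fewer cells of a type and less RNA per cell cannot be told apart.

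Loss of the cluster left none of the 10 genes past the test. With edgeR's quasi-likelihood test and a threshold of 0.05 on the adjusted p, 0 were higher and 0 lower in KO, while 12.4% of 14427 tested genes passed (7.42% higher and 4.96% lower). DESeq2 also called 0, and at an unadjusted p below 0.05 each tool had 1, the mitochondrial chaperonin gene Hspd1, against 28.2% of all tested genes with edgeR. The log2 fold changes (KO over WT) of the 10 genes ran from -0.09 to 0.50, with a median of 0.13, and the median of all tested genes was -0.01, with an interquartile range of -0.36 to 0.38. The groups did not overlap in 6 of the 10 genes, 4 of them higher in KO and 2 lower, and this was so for 58.0% of all tested genes (29.2% higher and 28.8% lower). Together the 10 genes took 1.56% and 1.57% of all counts in KO libraries 1 and 2, and 1.66% and 1.58% in WT libraries 1 and 2. Exact binomial 95% intervals reached 1.5735% for KO library 2, and began at 1.6524% for WT library 1 and 1.5726% for WT library 2, so those of KO library 2 and WT library 2 overlapped. These intervals cover counting error only.

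**Figure D1:**
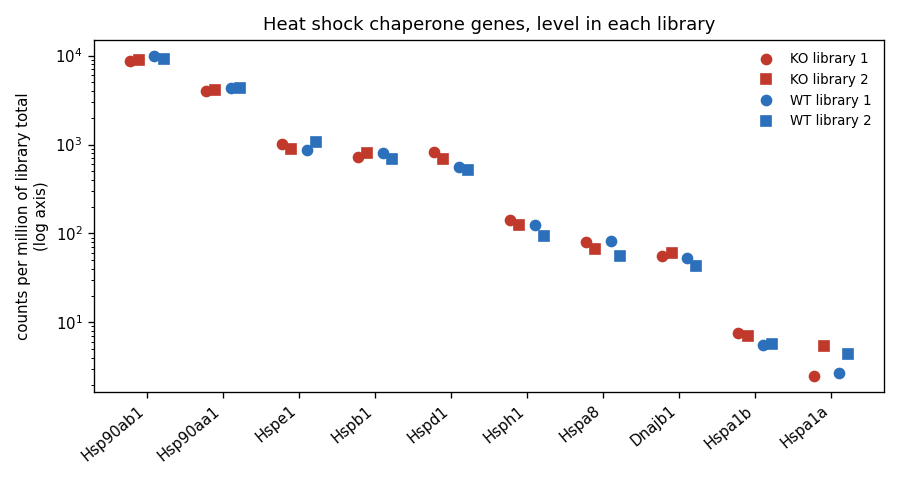
Level of each of the 10 genes in CPM of the library total (log axis), 1 point per library, with KO in red, WT in blue, library 1 as circles and library 2 as squares. Hsp90ab1 stands at 8782 to 9841 CPM and Hspa1a at 2.51 to 5.44, and for most genes the 4 points lie close together.

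Levels between genes differed far more than levels between groups. The order was Hsp90ab1, Hsp90aa1, Hspe1, then Hspb1 and Hspd1, then Hsph1, Hspa8 and Dnajb1, and last the stress-inducible pair Hspa1b and Hspa1a. Hspb1 and Hspd1 overlapped over the 4 libraries and changed places between KO library 1 and KO library 2, so these neighbours have no order. The ranges of Hspa8 and Dnajb1 also overlapped, but within each library Dnajb1 was the lower, with 0.649 to 0.898 counts for each count of Hspa8. The place of Hspa8 rests on how reads were divided between copies, as given below.

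The HSP90 genes were the most abundant of the 10, and neither passed the test. Hsp90ab1, the constitutive cytosolic HSP90, was at 8782 and 8973 CPM in KO and at 9841 and 9062 in WT. Hsp90aa1, its heat-inducible paralog, was at 4001 and 4048 CPM in KO and at 4265 and 4281 in WT. In both genes the KO libraries were the lower ones, though WT library 2 was near them for Hsp90ab1. Log2 fold changes were -0.09 (SE 0.12, 95% interval -0.36 to 0.18, edgeR adjusted p = 0.677) for Hsp90ab1 and -0.08 (SE 0.12, -0.35 to 0.18, adjusted p = 0.690) for Hsp90aa1. As a ratio of KO to WT the intervals run from 0.781 to 1.13 and from 0.786 to 1.13. Hsp90aa1 had 0.456 and 0.451 counts for each count of Hsp90ab1 in KO, and 0.433 and 0.472 in WT, so the balance of the paralogs overlapped between groups.

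Hspa8 encodes HSC70, the constitutive HSP70 of the cytosol. Its own row held 80.9 and 66.6 CPM in KO and 81.6 and 55.8 in WT, with the KO libraries between the WT ones (log2 fold change 0.10, SE 0.22, 95% interval -0.39 to 0.59, edgeR adjusted p = 0.812). The row holds a small share of the reads that could come from this gene. Of the 251 50-base words in the last 300 bases of the Hspa8 transcript, 207 (82.5%) also occur in transcripts of 11 other annotated genes, 10 of which, all processed pseudogenes, have a row in the table. The processed pseudogene Gm15459 on chromosome 5 held 8552 and 7557 counts in KO and 8228 and 5426 in WT, against 1029, 784, 992 and 554 on Hspa8 itself. Reads of the parent gene and of such a copy cannot be told apart where they share these words, and how the authors placed reads with several matches is not stated.

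Hspa8 summed with all the genes that share its words came to 757 and 712 CPM in KO and to 762 and 604 in WT, close to the level of Hspb1. The sum raised the level of the gene about as much in each group, since Hspa8 held 10.7% and 9.36% of it in KO and 10.7% and 9.24% in WT. The log2 fold change of the sum was 0.10 (SE 0.15, 95% interval -0.24 to 0.45, edgeR adjusted p = 0.709), and the row of Gm15459 alone gave 0.10 (SE 0.15). The sum was chosen after the counts were seen.

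**Figure D2:**
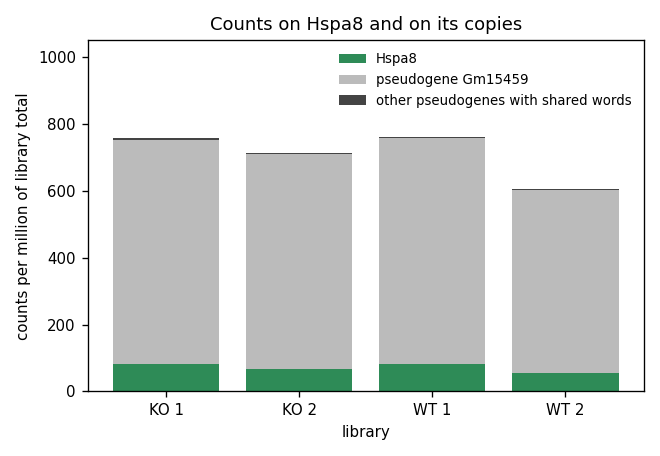
Stacked bars of the CPM of the library total on Hspa8 (green), on the processed pseudogene Gm15459 (light grey) and on the other genes that share 50-base words with the end of the Hspa8 transcript (dark grey), 1 bar per library. Gm15459 holds 88.8% to 90.5% of each bar, in KO and in WT alike.

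The stress-inducible HSP70 genes Hspa1a and Hspa1b, which lie near each other on chromosome 17 (34969190 to 34972156 and 34956436 to 34959238, GRCm38, minus strand), were close to silent. Hspa1b was at 7.70 and 7.05 CPM in KO and at 5.51 and 5.74 in WT, from 57 to 98 counts a library. Both KO libraries were higher, but the Poisson 95% intervals overlap (5.62 to 8.75 in KO library 2 and 4.35 to 7.44 in WT library 2), and the log2 fold change was 0.39 (SE 0.32, edgeR adjusted p = 0.479). Hspa1a was at 2.51 and 5.44 CPM in KO and at 2.71 and 4.43 in WT, from 32 to 64 counts. The KO libraries differed more from each other than the groups did, and the log2 fold change of 0.16 (SE 0.50, 95% interval -0.95 to 1.28, adjusted p = 0.869) turned to -0.49 without KO library 2 and to -0.14 without WT library 1. As a ratio the Hspa1a interval runs from 0.518 to 2.42, so smaller changes than these could not be told from none in these libraries. The Poisson 95% intervals of Hspa1a in KO libraries 1 and 2 (1.72 to 3.55 and 4.19 to 6.95 CPM) did not overlap. The spread between these libraries was thus larger than counting error.

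Although the 2 transcripts share 58.8% of the 50-base words of Hspa1a, their last 300 bases share 0 words, so 3' tags can be assigned to each copy. Summed into 1 row they gave 0.31 (SE 0.29, edgeR adjusted p = 0.536). Gm20481, annotated on the opposite strand across Hspa1a, held 0 counts in every library.

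The cochaperones of the HSP70 cycle had small positive estimates that did not pass. Dnajb1, the heat-inducible J-protein that delivers clients to HSP70, was at 55.7 and 59.8 CPM in KO and at 52.9 and 43.1 in WT (log2 fold change 0.27, SE 0.19, edgeR adjusted p = 0.399). Hsph1, the HSP110 protein that releases ADP from HSP70, was at 143 and 126 CPM in KO and at 124 and 94.7 in WT (0.30, SE 0.18, adjusted p = 0.328). Both had the KO libraries above the WT libraries, with WT library 2 the lowest of the 4 in each. When WT library 1 was dropped they gave 0.44 (edgeR adjusted p = 0.145) and 0.52 (0.0548), and when WT library 2 was dropped they gave 0.11 and 0.10.

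Hspb1, the ATP-independent small heat shock protein HSP25, was at 727 and 806 CPM in KO and at 795 and 682 in WT. The groups overlapped, with the highest library in KO and the lowest in WT, and a log2 fold change of 0.05 (SE 0.14, 95% interval -0.27 to 0.38, edgeR adjusted p = 0.849). Its named pseudogene Hsp25-ps1 held 7 to 24 counts a library, against 6765 to 9671 on Hspb1.

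**Figure D3:**
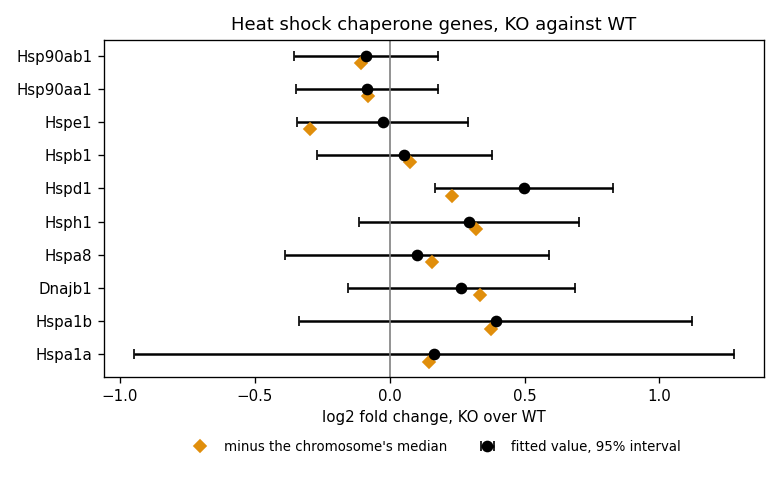
Fitted log2 fold change, KO over WT, of each of the 10 genes with its 95% interval (black), and the same value minus the median of tested genes on its chromosome (orange diamonds). Hspd1 at 0.50 is the only one whose unadjusted interval leaves out 0, and the diamonds of Hspd1 and Hspe1 lie 0.27 below their fitted values.

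The mitochondrial chaperonin genes had unlike estimates, and neither passed the test. Hspd1, which encodes HSP60, the subunit of the folding chamber, was at 832 and 683 CPM in KO and at 554 and 519 in WT. Hspe1, which encodes HSP10, the lid of the chamber, was at 1001 and 888 CPM in KO and at 874 and 1056 in WT. Both KO libraries were above both WT libraries for Hspd1, while for Hspe1 the KO libraries lay between the WT ones. Over the 2 libraries of each group Hspd1 averaged 758 CPM (SD 105) in KO against 537 CPM (SD 24.3) in WT, a log2 fold change of 0.50 (SE 0.15, 95% interval 0.17 to 0.83, 1.41-fold), which missed the threshold in edgeR (adjusted p = 0.0558) and in DESeq2 (0.50, adjusted p = 0.054). For Hspe1 it was -0.03 (SE 0.14, 95% interval -0.34 to 0.29, edgeR adjusted p = 0.927).

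Hspd1 was called higher without a low-count filter (edgeR adjusted p = 0.00682, where 6.23% of 25542 genes were called higher) and when WT library 1 was dropped (0.56, with an adjusted p of 0.0295). It was also called, narrowly, with chromosome 1 left out of the normalization (0.52, adjusted p = 0.0486). Dropping KO library 1 gave 0.36 (edgeR adjusted p of 0.448), dropping KO library 2 gave 0.64 (0.0909) and dropping WT library 2 gave 0.43 (0.0759), none of them called. Of all tested genes 61.3% had a smaller change in size than Hspd1.

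Hspd1 and Hspe1 start from the same stretch of chromosome 1 and are transcribed away from each other, Hspd1 from 55088243 down to 55077835 and Hspe1 from 55088132 up to 55091307. The annotated genes overlap only at their 5' ends, far from the ends that 3' tags are taken from. Their ratio removes any scaling of the library or the chromosome. There were 0.831 and 0.769 counts of Hspd1 for each count of Hspe1 in KO, and 0.634 and 0.492 in WT. The ratio was higher in both KO libraries, by 0.52 on the log2 scale, with an exact two-sided permutation p of 0.33, the smallest that 2 libraries against 2 allow. The pair was set side by side after the values were seen.

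Counts on chromosome 1 as a sum were higher in the KO libraries. It held 8.23% and 8.17% of all counts in KO and 6.07% and 7.29% in WT, so WT library 1 was the lowest and the WT libraries also differed from each other. The 889 tested genes of the chromosome had a median log2 fold change of 0.27, and 68.6% of them were above 0, against 49.5% of all tested genes. In CPM of the counts on chromosome 1 alone, Hspd1 stood at 10116 and 8362 in KO and at 9117 and 7121 in WT, and the groups overlapped. On the same scale Hspe1 stood at 12169 and 10871 in KO and at 14389 and 14478 in WT, with both KO libraries below both WT libraries. With the chromosome's median removed the log2 fold changes were 0.23 for Hspd1 and -0.30 for Hspe1, values with no test. On chromosome 1, 34.4% of tested genes had a higher fold change than Hspd1 and 29.5% a lower one than Hspe1. The part of the chromosome in the Hspd1 value was not tested beyond these values.

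**Figure D4:**
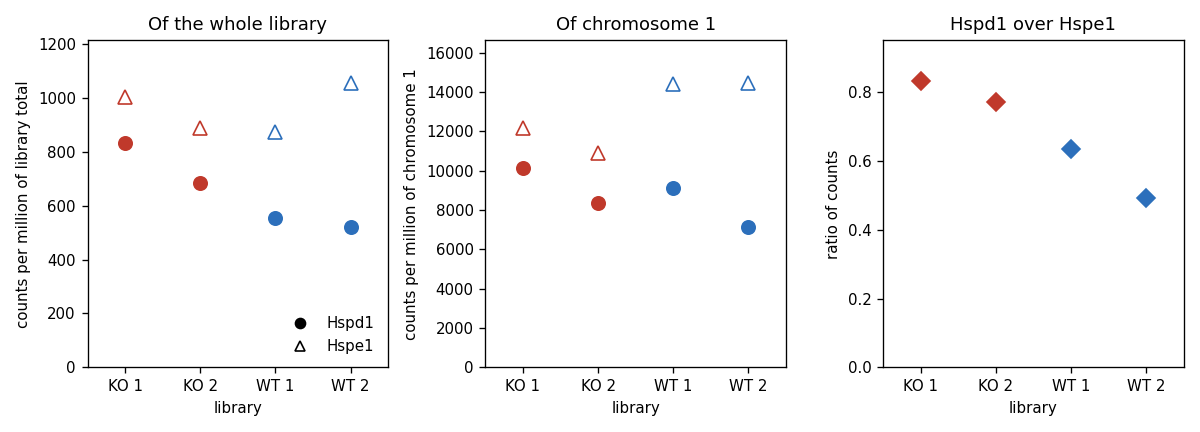
Hspd1 (filled circles) and Hspe1 (open triangles) in each library, in CPM of the library total (left) and of the counts on chromosome 1 (middle), and the ratio of their counts (right), with KO in red and WT in blue. The ratio is 0.769 to 0.831 in KO and 0.492 to 0.634 in WT, and the separation of Hspd1 by group on the left is lost in the middle panel.

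Some Hspe1 reads could also come from copies. Of its 251 end words 43.8% occur in 4 other genes, which held 128 to 190 counts a library in all, against 10450 to 12744 on Hspe1. Adding them left the log2 fold change at -0.03. The end words of Hspd1, Hsph1, Hsp90aa1, Hsp90ab1, Dnajb1, Hspa1a and Hspa1b were not found in any other annotated gene.

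The wider chaperone network was examined through 10 lists that hold 101 genes, of which 94 were tested, 5 were called higher and 4 lower (9.57%, against 12.4% of all tested genes). The regulators of the response did not pass. Hsf1, its main transcription factor, was at 25 and 27.2 CPM in KO and at 36.4 and 32.2 in WT (log2 fold change -0.40, SE 0.20, edgeR adjusted p = 0.234). Hsf2, a second heat shock factor, was at 68.6 and 50.7 CPM in KO and at 47.7 and 55.7 in WT (0.21, adjusted p = 0.544). Of the 5 tested heat shock factor and regulator genes 0 were called by edgeR or DESeq2, and 0 had an unadjusted p below 0.05. The others named by rule were Hsbp1l1 (1.06, with 2.28 and an adjusted p of 0.0143 without WT library 2, and 0.38 and 0.624 without WT library 1) and Hikeshi (-0.27), which carries HSP70 into the nucleus. Their list median was -0.17.

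Among the small heat shock proteins other than Hspb1 a pair of genes rose. Hspb6 was at 36.5 and 30.2 CPM in KO and at 11.3 and 15.5 in WT, a rise of 1.32 (SE 0.24, edgeR adjusted p = 0.00938). Hspb8, which works with the cochaperone BAG3 in the clearance of misfolded proteins, was at 112 and 151 CPM in KO and at 50 and 88.4 in WT, a rise of 0.94 (SE 0.26, adjusted p = 0.0438). Both genes had all KO libraries above all WT libraries, as did 29.2% of all tested genes. The call of Hspb8 ended when KO library 2 was dropped (0.70, with an edgeR adjusted p of 0.206) and when WT library 1 was dropped (0.59, with 0.0576). It also ended with scaling by library totals (0.0546) and at a mean CPM of at least 10 (0.0714). Hspb6 was called in each of these fits. Cryab, the alpha-B crystallin gene, was at 6.05 and 5.52 CPM in KO and at 10.8 and 9.07 in WT and did not pass (-0.78, adjusted p = 0.138). Of 9 genes in this list 5 were tested and 2 rose, with a list median of -0.18. The share of all tested genes called higher was 7.42%.

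Cochaperones of HSP90 and of HSP70 included 3 calls, all lower. The shares of all tested genes called lower and higher were 4.96% and 7.42%. Ppid, which encodes the HSP90-binding cyclophilin CYP40, was at 150 and 132 CPM in KO and at 242 and 250 in WT and fell by 0.80 on the log2 scale (SE 0.15, edgeR adjusted p = 0.0097, and 0.112 without KO library 2). It was the only gene called of 13 HSP90 cochaperones, whose median was -0.30, and St13 (-0.44, adjusted p = 0.079) and the kinase-loading Cdc37 (-0.39, adjusted p = 0.114) did not pass. St13, which binds HSP70, did pass without a low-count filter (-0.44, adjusted p = 0.0385) and when WT library 2 was dropped (-0.57, with 0.0129). Among 11 J-protein genes (median -0.18) Dnajb5 was called, at 6.36 and 6.88 CPM in KO and 18.9 and 11.1 in WT (-1.18, SE 0.33, adjusted p = 0.0483), and Dnajb6 (0.47, adjusted p = 0.0729) and Dnajc2 (-0.38, adjusted p = 0.131) were not. Of 10 other fits Dnajb5 was called in 4 and not in 6, among them the one without WT library 1 (-0.72, adjusted p = 0.187). Dnajb6 passed without WT library 1 (0.59, adjusted p = 0.0208) and when low counts were not filtered (0.47, with 0.0438), and Dnajc2 without WT library 2 (-0.50, adjusted p = 0.0272), with -0.24 (0.298) when WT library 1 was dropped.

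Among 8 nucleotide exchange factor and related genes (median -0.03) Bag4 was called, at 68.4 and 66 CPM in KO and 97.6 and 99.3 in WT (-0.55, SE 0.16, edgeR adjusted p = 0.0499), and DESeq2 did not call it (adjusted p = 0.0533). Its call also ended with scaling by library totals (adjusted p = 0.0503), with the replicate number as a block (0.0845), and without KO library 1 or KO library 2 (adjusted p = 0.291 and 0.344). Bag1 (-0.28) and Bag6 (0.12) did not pass.

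In the lists of other HSP70 and HSP110 genes, mitochondrial chaperones and proteases, and TRiC and prefoldin, 0 genes were called by edgeR or DESeq2. For the other HSP70 and HSP110 genes (7 tested, 2 with an unadjusted p below 0.05 in either tool, median -0.07) the leading values were Hspa13 (0.74, adjusted p = 0.0709), Hspa4 (-0.38, adjusted p = 0.0864) and Hspa12a (-0.94, adjusted p = 0.234). Hspa13 passed without WT library 2 (0.81, adjusted p = 0.0492) and Hspa12a without WT library 1 (-1.46, adjusted p = 0.0295), while Hspa12a gave -0.19 (0.846) when WT library 2 was dropped. Hspa9, the mitochondrial HSP70, was at 966 and 931 CPM in KO and at 883 and 729 in WT (0.24, adjusted p = 0.332), and the 14 mitochondrial chaperone and protease genes had a median of -0.03, with 1 unadjusted p below 0.05 in edgeR and 0 in DESeq2. Yme1l1 (-0.36, adjusted p = 0.148) and Spg7 (0.29, adjusted p = 0.314), both genes of inner membrane proteases, led that list with Hspa9. The 14 genes of the TRiC chaperonin, the cytosolic ring that folds actin and tubulin, and of its partner prefoldin had a median of -0.18. Of these 12 were below 0, while 49.5% of all tested genes were above 0. An unadjusted p below 0.05 was found for 4 in edgeR, against 28.2% of all tested genes, and for 2 in DESeq2. Cct5, Cct8 and Cct4 gave -0.37, -0.36 and -0.33 (edgeR adjusted p = 0.111, 0.131 and 0.154). Cct8 passed without WT library 1 (-0.50, adjusted p = 0.0268) and gave -0.22 (0.341) when WT library 2 was dropped.

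The heat-induced list repeats some of these genes. Of its 15 genes 1, Hspb8, was called, with a list median of 0.05, and Cryab, described above, was not. Immediate early genes, which respond to handling and serum, summed to 316 and 552 CPM in KO and to 583 and 291.97 in WT, so the groups overlapped, and 1 of the 8, Atf3, was called higher (1.34), though not without KO library 2 (1.01, edgeR adjusted p = 0.208).

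**Figure D5:**
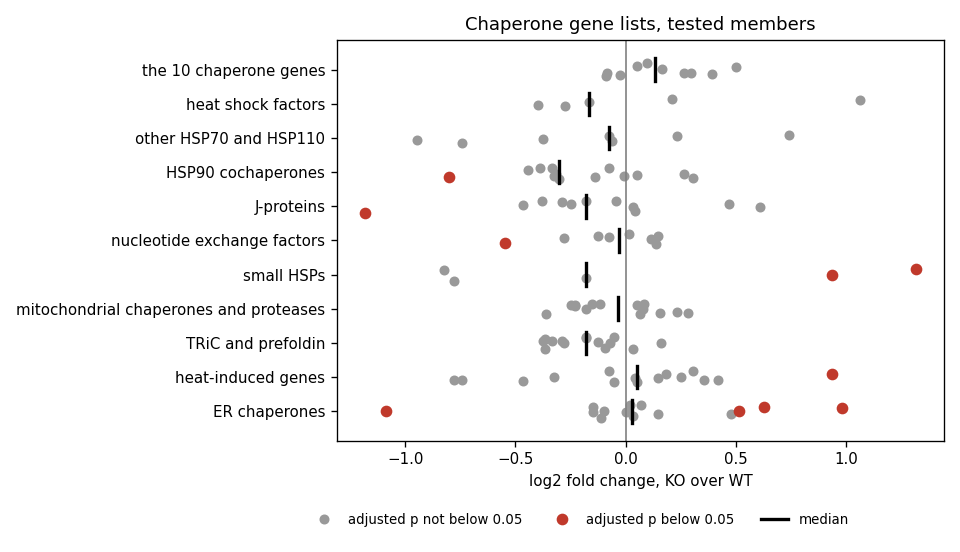
Log2 fold change, KO over WT, of every tested gene of the 10 chaperone genes and of the 10 related lists, 1 point per gene, red where the edgeR adjusted p is below 0.05, with the list median as a black bar. None of the 10 chaperone genes is red, and the ER list holds 4 of the red points.

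Chaperones of the endoplasmic reticulum, which answer to another stress pathway, held calls in both directions. Of 14 genes 3 rose and 1 fell, with a list median of 0.03, while 7.42% of all tested genes were called higher and 4.96% lower. Dnajc3, a J-protein that restrains the kinase PERK, was at 68.9 and 80.4 CPM in KO and at 32.2 and 43.7 in WT and rose by 0.98 (SE 0.20, edgeR adjusted p = 0.0152, and 0.0915 without KO library 2). Calr, the lectin chaperone calreticulin, rose by 0.63 (SE 0.14, adjusted p = 0.0209, and 0.192 and 0.0674 without KO library 1 and KO library 2). The third was Hspa5, which encodes the main HSP70 of that compartment (0.52, adjusted p = 0.0495), named here because the count is small. Its call ended when KO library 1 (0.41, with 0.362), KO library 2 (0.63, with 0.101) or WT library 2 (0.41, with 0.0844) was dropped, with DESeq2 size factors (0.056) and at a mean CPM of at least 10 (0.0629). Sdf2l1 fell by 1.09 (SE 0.28, adjusted p = 0.0349, with -0.69 and 0.0637 without WT library 2 and -0.84 and 0.177 without KO library 1). Whether the share of calls differs between the ER list and the 10 cytosolic and mitochondrial genes was not tested. Hspd1 (0.50) and Hspa5 (0.52) lie on either side of the threshold, with adjusted p of 0.0558 and 0.0495, and with the median of their chromosomes removed they gave 0.23 and 0.54.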

How the data were processed

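Messenger RNA was measured in 4 libraries. Trizol RNA went into QuantSeq 3' FWD libraries, per the labels' protocols. The deposited table holds raw, unnormalized counts, 1 row per Ensembl identifier. Per the submitters' processing notes Trim Galore and GRCm38 were used. Not given in the sources used here are the aligner, the counter, its strand setting and how reads with several matches were placed. Genes were named with GENCODE vM21 (55240 of 55421 identifiers).

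Groups came from the titles. The whole table was fitted with edgeR 4.0.16 (R 4.3.3, TMM, filterByExpr, quasi-likelihood F test, two-sided, Benjamini-Hochberg over 14427 genes, adjusted p of 0.05). Standard errors are the log2 fold change over the square root of F. Library pairs of 1 group differed by 11.5 and 19.1 in chi-square per degree of freedom, so no library repeats another. The members and lists were chosen with earlier results of these data known. Context genes named are Hsf1, Hsf2 and the 3 with the smallest p of each list; Hspa5, Gm15459, Atf3, Klf4, Col3a1 and Gm20481 are outside that rule, and 1 gene that it names is not reported here. Shared words are exact matches of 50 bases, on either strand, between the last 300 bases of a gene's basic coding transcripts and any transcript of another GENCODE gene. The alternatives were DESeq2 1.42.0 (size factors, test), library totals, other filters, the replicate block, each library left out, chromosome medians and summed copies. The test was checked on simulated counts. Protein sequences were not used here.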

Additional observations from a re-analysis of the deposited data

How the results depend on the processing

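Of 129 refits of the 10 genes, 118 kept direction and side of the threshold. With 1 library left out the log2 fold change lay between -0.49 and 0.62 for Hspa1a, -0.16 and 0.42 for Hspa8, -0.073 and 0.19 for Hspb1, -0.14 and 0.094 for Hspe1, and 0.36 and 0.64 for Hspd1, so the sign of the first 4 depended on the libraries used. Hsf2 lay between -0.018 and 0.42. The number of chaperone genes called higher was 0, and 1 (Hspd1) without a low-count filter, with chromosome 1 left out of the normalization, and without WT library 1, so 0 to 1 with 1 library left out. The number called lower was 0 in every fit. Over all genes, 1071 higher and 715 lower calls became 636 and 391 at a mean CPM of at least 10, and 1590 and 1193 without a low-count filter. They lay between 556 and 1477, and between 285 and 1011, with 1 library left out. Context genes called higher were 5, and 3 at a mean CPM of at least 10. Those called lower were 4, and 2 with library totals. With 1 library left out they lay between 1 and 6, in either direction. The cause of these moves was not tested.

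With the replicate block, 638 genes were higher and 370 lower, 2 context genes were lower and 0 of the 10 chaperone genes were called (Hspd1 0.49, edgeR adjusted p = 0.0583). Deviations of same-numbered libraries correlated at -0.03 over 10360 genes. This single comparison shows no broad shared shift, but it cannot show that a smaller shared batch is absent. The labels do not say what the number marks. Left-out fits rest on a lone library assumed to vary like the other group. Counts were lowest for Hspa1a (32 to 64 a library) and Hspa1b (57 to 98), so counting error is largest for them. In these libraries 3 counts are 0.236 to 0.302 CPM.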

Other observations

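Shared 3' ends were also counted for 130 genes of the related and marker lists, after the values of Hspa8 were seen. At least 1 shared 50-base word was found for 22 of them, and more than 50% of the end words were shared for 5. In 3 genes the sharing genes held more counts than the gene itself. One was Dnaja4, a cytosolic J-protein gene with 61 counts over the 4 libraries, whose end overlaps words of Wdr61 with 5477 counts. The others were Hspb2 (190 counts, against 363) and Hspa12b (31 counts, against 1168). These shared only 1.59% and 2.79% of their end words, against 50% for Dnaja4. The J-protein gene Dnaja1 held 10987 counts and shared 50% of its end words with Smu1, also on chromosome 4, with 10556. Whether reads of these pairs were divided by strand is not stated, and their part in the values of Dnaja1 and Dnaja4 was not tested.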
